A study of Rattus norvegicus with 24 samples.

Results

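Slc10a2 encodes the apical sodium-dependent bile acid transporter, a carrier that brings bile acids into the cell together with sodium. It was measured here in rat liver by 1 probe set, 1368745_PM_at, the only one of 31139 on the array whose annotation names this gene alone. The gene was chosen from its measured values over the 4 groups, so its own values are given as a description, with standard errors and no test.

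The 24 arrays held liver RNA of 24 male Sprague Dawley rats of 8 weeks, 1 rat per array, in 4 groups of 6. ANIT, alpha-naphthylisothiocyanate, is a chemical that injures the cells lining the bile ducts. Treated rats had received 1 intragastric dose of 50 mg/kg ANIT in corn oil, and their livers were taken at 24 h or at 120 h. By the labels, injury peaks at 24 h, and 120 h is a time of repair. The vehicle groups received corn oil and were taken at the same 2 times, so each ANIT group had its own controls. All 24 rats, controls included, were fasted overnight and were given BrdU, a label of DNA synthesis, about 2 h before necropsy.

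As background, the transporter is best known from the ileum, where it recovers bile acids from the gut, and it also sits in the apical membrane of bile duct cells (cholangiocytes) and of the renal proximal tubule. Hepatocytes take up most bile acids from blood through a relative, Slc10a1. Inside ileal cells bile acids bind Fabp6 and leave through the Slc51a and Slc51b pair, and the nuclear receptor Nr1h4 senses them and induces Nr0b2, a repressor of bile acid synthesis. In whole liver RNA, fewer cells of a type and less RNA per cell cannot be told apart.

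The promoter windows of Slc10a2 and of Slc10a1 are shown because the 2 genes of the family differed in direction at 24 h. Both are RefSeq sequences of build GRCr8, 5′ to 3′ on the gene's strand, with 250 bases before and 50 bases after the start, at chr16:91087839-91088138 on the plus strand for Slc10a2 and at chr6:106357895-106358194 on the minus strand for Slc10a1. Capitals mark the match to the AP-1 motif in Slc10a2.
Slc10a2: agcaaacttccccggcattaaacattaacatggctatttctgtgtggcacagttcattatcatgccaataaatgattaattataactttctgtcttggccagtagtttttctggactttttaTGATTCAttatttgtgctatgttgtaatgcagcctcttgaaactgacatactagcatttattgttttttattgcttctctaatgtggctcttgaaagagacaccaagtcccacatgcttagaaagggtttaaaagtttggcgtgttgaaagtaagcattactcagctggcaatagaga
Slc10a1: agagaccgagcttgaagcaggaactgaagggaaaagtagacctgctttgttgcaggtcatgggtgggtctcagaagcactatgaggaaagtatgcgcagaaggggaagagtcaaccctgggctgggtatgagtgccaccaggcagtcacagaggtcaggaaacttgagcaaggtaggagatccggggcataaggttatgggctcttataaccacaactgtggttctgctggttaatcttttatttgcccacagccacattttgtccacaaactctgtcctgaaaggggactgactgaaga
The Slc10a2 window held 36.3% G and C, against 50.0% for Slc10a1. Motifs were searched on both strands, and shares are of 33469 RefSeq promoter windows of the same length. The AP-1 motif TGANTCA, bound by Jun and Fos proteins, occurred 1 time in Slc10a2, 128 bases before the start, and 0 times in Slc10a1, and 7.329% of windows held it. The LRH-1 motif CAAGGNCA, present in 6.549% of windows, was not found in either gene. Nor were the inverted and direct repeats of AGGTCA spaced by 1 base. Exact matches to these repeats occur in only 0.027% and 0.054% of windows, so nothing is read from their absence. The search describes letters in the windows and says nothing of binding.

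In vehicle livers at 24 h, replicates 1 to 6 had log2 Slc10a2 levels of 6.31, 5.58, 5.25, 6.67, 5.02 and 5.83. In ANIT livers at 24 h the levels were 8.70, 7.79, 9.06, 8.20, 8.26 and 9.01. In vehicle livers at 120 h they were 5.89, 7.25, 6.21, 6.22, 6.23 and 6.19. In ANIT livers at 120 h they were 7.90, 8.13, 6.66, 5.60, 6.25 and 6.70. Every ANIT liver at 24 h stood above every vehicle liver of either time, while the 120 h ANIT livers spread from below to above their controls. On all 24 arrays the probe set was brighter than the highest of the 23 nonspecific background probe sets, by at least 2.08 on the log2 scale, and the table held no detection call.

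**Figure D1:**
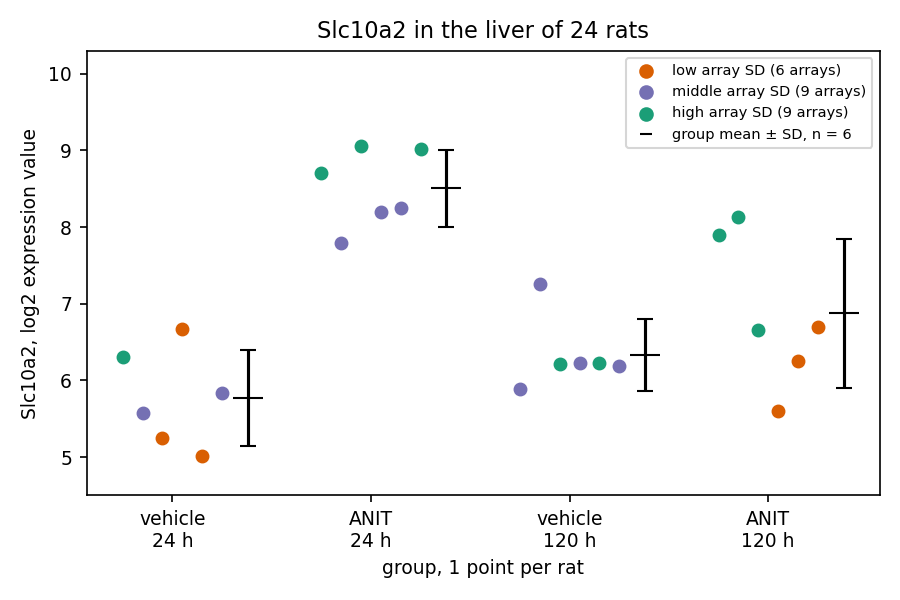
Log2 level of the Slc10a2 probe set (vertical axis) in each of the 24 livers, by group, with 1 point per rat and the group mean and SD. The 6 ANIT livers at 24 h lie between 7.79 and 9.06, above all vehicle livers, and the 6 at 120 h lie between 5.60 and 8.13.

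At 24 h the mean log2 level was 8.50 ± 0.50 (SD, n = 6) with ANIT and 5.77 ± 0.63 (SD, n = 6) with vehicle. The difference was 2.73 ± 0.35 (SE), which is 6.63-fold, and the lowest ANIT liver was 1.13 above the highest vehicle liver on the log2 scale. All 6 ANIT livers were thus above all 6 controls, a pattern shown by 5.54% of the 13438 genes tested, and since the gene was chosen on this contrast nothing is read from it. Its difference ranked 10th from the highest among those genes, whose median difference was 0.0046 and of which the 5th and 95th percentiles were -0.42 and 0.66.

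At 120 h the mean log2 level was 6.87 ± 0.97 (SD, n = 6) with ANIT and 6.33 ± 0.47 (SD, n = 6) with vehicle. The difference was 0.54 ± 0.35 (SE), or 1.45-fold, and it was smaller than the SD among the ANIT livers. Of the 6 ANIT livers, 2 were above all controls and 1 was below all controls. One control, vehicle 120 h replicate 2, stood above the others. Without it the difference was 0.72, or 1.65-fold, and 5 ANIT livers were above the other controls. The effect at 24 h exceeded that at 120 h by 2.19 ± 0.50 (SE) on the log2 scale.

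In order of level, the 24 h ANIT group was highest, followed by ANIT at 120 h, vehicle at 120 h and vehicle at 24 h. The first step was 1.63, or 3.10-fold, and 5 of 6 livers of the 24 h ANIT group were above all of the 120 h ANIT group. The other neighbours overlapped: the 2 vehicle groups differed by 0.56 ± 0.35 (SE), which is within their spread. The 2.53 range of the 120 h ANIT livers was the widest of the 4 groups. Their SD of 0.97 ranked 12th highest of 13438 genes in that group, where the median SD was 0.25, while the SD of Slc10a2 ranked 207th in vehicle at 24 h, 305th in ANIT at 24 h and 411th in vehicle at 120 h.

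The arrays differed in the SD of all their log2 values, which ran from 1.84 to 2.09, and this moved with the Slc10a2 level within both ANIT groups. The arrays were placed by that SD in a low band of 6, a middle band of 9 and a high band of 9. ANIT 120 h replicates 1 to 3 lay in the high band, with Slc10a2 at 6.66 to 8.13, and replicates 4 to 6 in the low band, with 5.60 to 6.70. Within the high band at 120 h the difference from vehicle was 1.34, with 3 ANIT and 2 vehicle livers, and neither other band held both treatments at that time. At 24 h the difference was 2.38 in the middle band, with 3 ANIT and 2 vehicle livers, and 2.62 in the high band, with 3 ANIT livers and 1 vehicle liver. The 3 high-band ANIT livers at 24 h had Slc10a2 at 8.70 to 9.06, and the 3 of the middle band at 7.79 to 8.26. The low band held 3 vehicle livers and 0 ANIT livers at 24 h. Without the 6 low-band arrays the 120 h difference was 1.23, and with array SD as a covariate it was 0.82. The part of array SD in these values was not tested.

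**Figure D2:**
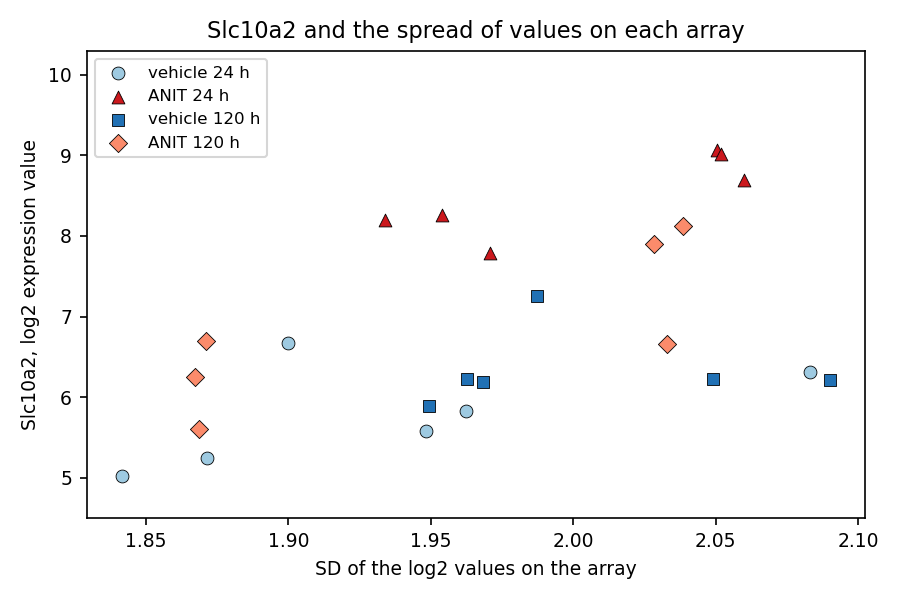
Log2 level of Slc10a2 (vertical axis) against the SD of all log2 values on the same array (horizontal axis), with 1 point per rat, marked by group. The 24 h ANIT livers lie at 7.79 and above in the middle and high bands, and the 120 h ANIT livers form 3 points at low SD and 3 at high SD.

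Array means ran from 5.86 to 5.89. The beta-actin 3′ to 5′ log2 ratio, which reflects RNA or amplification quality, was 3.12 ± 0.07 (SD) in ANIT and 2.84 ± 0.05 (SD) in vehicle livers at 24 h, with no overlap (two-sided exact permutation test, p = 0.00216, adjusted p = 0.0173 over 8 comparisons of technical measures). At 120 h it was 2.76 ± 0.15 (SD) against 2.83 ± 0.08 (SD) (exact permutation p = 0.368, adjusted p = 0.491). The GAPDH 3′ to 5′ log2 ratio was lower with ANIT at 24 h, at 1.62 ± 0.04 (SD) against 1.71 ± 0.08 (SD) (exact permutation p = 0.0476, adjusted p = 0.19), and its exact permutation p at 120 h was 0.561. Array SD and the level of the 9 spiked controls gave adjusted exact permutation p-values of 0.242 to 0.522. With the actin ratio as a covariate, the Slc10a2 difference at 24 h was 2.01 and the difference between times was 1.28. The SE at 24 h was 0.49 with this covariate and 0.35 without it. As the ratio did not overlap between the 24 h groups, the covariate cannot be separated from ANIT at that time. The part of RNA quality in the results was not tested.

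The other genes were tested with limma over 13438 genes with Benjamini-Hochberg adjustment, and a call is an adjusted p under 0.05. For some lists the number with an unadjusted limma p under 0.05 is also given. The share of all genes under that threshold was not counted, so nothing is read from those numbers. At 24 h, 12.9% of genes were called higher and 5.31% lower with ANIT. At 120 h the shares were 0.513% higher and 1.51% lower, and 14.3% of genes had effects that differed between the times. The higher share of the 24 h calls moved with scaling: 1738 of 2451 calls were higher as reported, 1293 of 2700 with the spiked control level as a covariate and 821 of 1554 without the low-band arrays. At 120 h 69 of 272 calls were higher as reported, 345 of 652 with array SD as a covariate and 142 of 194 without the low-band arrays. Leaving out 1 array gave 1829 to 3534 calls at 24 h, the most without vehicle 24 h replicate 1. Without that array 175 genes were called between the 2 vehicle groups, against 1 as reported. At 120 h leaving out 1 array gave 152 to 343 calls, the fewest without vehicle 120 h replicate 5. With the actin covariate the 24 h calls numbered 907, against 2451, and those of a difference between times 438, against 1924. That ratio separated the groups at 24 h. The low band held only vehicle livers at 24 h and only ANIT livers at 120 h. With the actin covariate 462 of the 907 calls at 24 h were higher, so the differences moved as well as the precision. For a call lost with the actin covariate or without the low-band arrays, lost precision and a changed difference were not told apart.

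Of 6 SLC10 family members, 5 were measured beside Slc10a2 and Slc10a6 was not measured. At 24 h 2 rose, 1 fell and 2 were not called, with a median log2 difference of 0.04. Slc10a1, the main hepatocyte bile acid uptake carrier, ran from 11.43 to 11.76 in vehicle livers (median 11.61) and from 10.81 to 11.27 in ANIT livers (median 11.02). Every ANIT liver was below every vehicle liver, a pattern shown by 2.32% of all genes. Slc10a1 fell by 0.54 ± 0.08 (SE, limma adjusted p = 2.98e-05), and at 120 h the difference was 0.04 ± 0.08 (SE, adjusted p = 0.865). Its effects at the 2 times differed by -0.58 ± 0.12 (SE, adjusted p = 0.0014). Slc10a3 rose by 0.67 ± 0.16 (SE, adjusted p = 0.00328) and Slc10a7, a relative that does not carry bile acids, by 0.46 ± 0.12 (SE, adjusted p = 0.00959). Both calls were lost with the actin ratio as a covariate and without the 6 low-band arrays. At 120 h 0 of 5 were called, and 0 had an unadjusted p under 0.05.

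Among 18 carriers and binding proteins of bile acids, 16 were measured. At 24 h 5 rose and 4 fell, with a median of -0.09, against 0.0046 over all genes. The genes that fell were uptake carriers of the hepatocyte: Slc10a1, Slco1a1 (-0.37 ± 0.11, adjusted p = 0.0257), Slco1a4 (-1.39 ± 0.25, adjusted p = 0.000219) and Slco1b2 (-0.59 ± 0.10, adjusted p = 9.75e-05). The genes that rose were export pumps. Abcg2 rose by 1.41 ± 0.20 (SE, adjusted p = 9.32e-06), Abcb4, which exports phospholipid into bile, by 0.76 ± 0.13 (SE, adjusted p = 0.00018), and Abcc4, an exporter to blood, by 0.79 ± 0.24 (SE, adjusted p = 0.0227). The canalicular pump of bile salts, Abcb11, rose by 0.45 ± 0.11 (SE, adjusted p = 0.00528) and Abcc3, another exporter to blood, by 0.54 ± 0.15 (SE, adjusted p = 0.0118). The Abcb11, Abcc3 and Abcc4 calls were lost with the actin covariate and without the low-band arrays, and that of Abcc3 also under quantile normalization. Leaving out any 1 of vehicle 24 h replicates 3, 4 and 5 or ANIT 24 h replicates 1 and 6 ended the Abcc4 call. The Slco1a1 call ended with the actin covariate, and when any 1 of ANIT 24 h replicates 3 and 4 and vehicle 24 h replicates 4 and 6 was dropped. Slco1a1, Slco1a4, Abcb4 and Abcc4 were named after their values were seen.

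At 120 h Abcc3 alone was called among the 16, and 4 had an unadjusted p under 0.05. Its levels ran from 8.55 to 8.94 in ANIT livers and from 7.74 to 8.28 in vehicle livers (difference 0.77 ± 0.15 SE, adjusted p = 0.00579). The proteins that work after Slc10a2 in the ileal route were not called: Slc51a differed by -0.02 ± 0.12 (SE) at 24 h (adjusted p = 0.924) and -0.0066 ± 0.12 (SE) at 120 h (adjusted p = 0.99). Fabp6 differed by -0.05 ± 0.11 (SE) at 24 h (adjusted p = 0.795) and 0.10 ± 0.11 (SE) at 120 h (adjusted p = 0.718). Both probe sets were dim over the 24 arrays, at 4.23 to 5.06 for Slc51a and 4.21 to 4.92 for Fabp6. Little is read from their missing calls. Slc51b and Slco1a2 were not measured.

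Of 13 sensing and feedback genes 10 were measured, and at 24 h 1 rose and 5 fell (median -0.42). Nr0b2 ran from 5.79 to 7.79 in vehicle livers and from 8.27 to 9.79 in ANIT livers. Every ANIT liver was above every vehicle liver, a pattern shown by 5.54% of all genes. Nr0b2 rose by 2.35 ± 0.25 (SE, adjusted p = 1.96e-07), and at 120 h the difference was 0.03 ± 0.25 (SE, adjusted p = 0.969). Nr1h4 fell by 1.16 ± 0.20 (SE, adjusted p = 0.000142) and Cyp8b1, a hydroxylase that shapes the bile acid pool, fell by 2.45 ± 0.23 (SE, adjusted p = 2.08e-08). Cyp7a1, the rate-limiting enzyme of bile acid synthesis, fell by 1.78 ± 0.44 (SE, adjusted p = 0.00569), Cyp27a1, of the alternative route, by 0.71 ± 0.08 (SE, adjusted p = 6.21e-07) and Nr1i3, a xenobiotic receptor, by 0.95 ± 0.25 (SE, adjusted p = 0.00938). At 120 h 0 of 10 were called, and 2 had an unadjusted p under 0.05. The Cyp7a1 call was lost with the actin covariate and without the low-band arrays. Cyp7a1 and Nr1i3 were named after their values were seen.

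Of 16 factors known to act on the Slc10a2 gene or its RNA, 12 were measured. At 24 h 3 rose and 1 fell (median 0.06). Jun, an AP-1 subunit, rose by 1.04 ± 0.23 (SE, adjusted p = 0.00224) and Zfp36, which destabilises RNAs, by 0.70 ± 0.18 (SE, adjusted p = 0.00591). Both calls were lost with the actin covariate. Hnf4a, a hepatocyte nuclear receptor, rose by 0.31 ± 0.09 (SE, adjusted p = 0.0187), a call lost with the actin covariate, and also when any 1 of ANIT 24 h replicates 1 and 6 and vehicle 24 h replicate 3 was dropped. With the mean of its probe sets in place of the brightest, the Hnf4a difference was -0.12 (adjusted p = 0.435). Nr3c1, the glucocorticoid receptor, fell by 0.55 ± 0.13 (SE, adjusted p = 0.00304). Ppara, the fatty acid receptor, was not called, at 0.08 ± 0.12 (SE, adjusted p = 0.663). Its probe set was dim, at 4.31 to 5.28 over the 24 arrays, below the lowest array median of 5.34. Little is read from the missing call. At 120 h 0 of 12 were called, and 1 had an unadjusted p under 0.05.

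**Figure D3:**
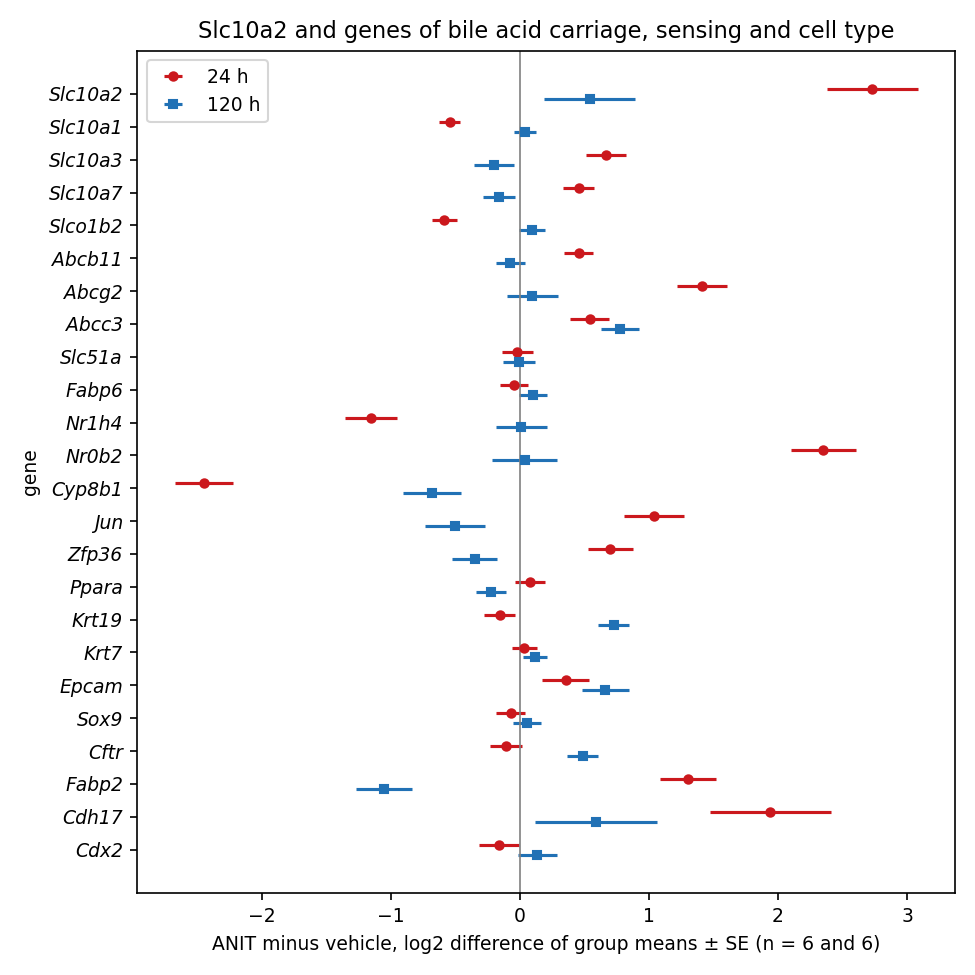
ANIT minus vehicle log2 differences with their standard errors at 24 h and at 120 h for Slc10a2 and the named carriers, sensors and markers, with 0 as no difference. Slc10a2 lies at 2.73 at 24 h and 0.54 at 120 h, and Nr0b2 at 2.35 and 0.03.

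Cholangiocytes express Slc10a2, and 17 of 20 cholangiocyte markers were measured. Of these, 4 had an unadjusted p under 0.05 at 24 h and 7 at 120 h. At 24 h 0 were called higher and 2 lower, with a median of -0.11: Cd24 fell by 0.38 ± 0.11 (SE, adjusted p = 0.0124) and Prom1 by 0.39 ± 0.13 (SE, adjusted p = 0.029). Both calls were lost when arrays were shifted to a common median and without the low-band arrays, Cd24 also with the actin covariate, and the Prom1 call was lost without any 1 of vehicle 24 h replicates 1, 3, 4 and 6 or ANIT 24 h replicates 1 and 3. The summed level of the list ran from 10.31 to 10.85 in vehicle and from 10.23 to 10.35 in ANIT livers at 24 h on the log2 scale. The defining markers Krt19 (-0.16 ± 0.12, adjusted p = 0.394), Krt7 (0.03 ± 0.10, adjusted p = 0.846), Epcam (0.35 ± 0.18, adjusted p = 0.192), Sox9 (-0.07 ± 0.11, adjusted p = 0.683) and Cftr (-0.11 ± 0.12, adjusted p = 0.577) were not called at 24 h. These ranges overlapped. Sox9, at 3.13 to 3.77 over the 24 arrays, lay close to the nonspecific probe sets, whose highest value per array was 2.88 to 3.10. Krt7, at 3.63 to 4.16 over the 24 arrays, and Cftr, at 3.66 to 4.17 at 24 h, were also dim. A further defining marker, Sctr, was measured and not called at 24 h, and its values are not given. The part of bile duct cells in the Slc10a2 values was not tested.

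At 120 h 5 of the 17 measured cholangiocyte markers rose, 0 fell and 12 were not called (median 0.21). Over all genes 0.513% were called higher and 1.51% lower. The defining markers Krt7 (0.12 ± 0.10, adjusted p = 0.614), Epcam (0.66 ± 0.18, adjusted p = 0.0599) and Sox9 (0.05 ± 0.11, adjusted p = 0.861) were not called. Epcam was called in 7 of 10 other settings. Tspan8 rose by 1.14 ± 0.16 (SE, adjusted p = 0.00029), Krt19 by 0.73 ± 0.12 (SE, adjusted p = 0.00147), Cd24 by 0.72 ± 0.11 (SE, adjusted p = 0.000406) and Prom1 by 0.66 ± 0.13 (SE, adjusted p = 0.00485). Cftr rose by 0.49 ± 0.12 (SE, adjusted p = 0.0373), a call lost in 9 of the 24 fits that left out 1 array: vehicle 120 h replicates 1, 2, 4, 5 and 6, and ANIT 120 h replicates 1, 3, 4 and 6. The summed level ran from 10.55 to 11.10 in ANIT and from 10.36 to 10.73 in vehicle livers. The effects on Krt19 differed between times by -0.88 ± 0.17 (SE, adjusted p = 0.000995), a call lost with the actin covariate.

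Of 14 ileal markers 13 were measured. At 24 h Fabp2, a fatty acid binding protein, rose by 1.30 ± 0.22 (SE, adjusted p = 9.02e-05) and Cdh17, an intestinal cadherin, by 1.94 ± 0.47 (SE, adjusted p = 0.00433). Anpep, an aminopeptidase, fell by 0.56 ± 0.14 (SE, adjusted p = 0.00609). The Cdh17 call was lost with the actin covariate and without the low-band arrays. At 120 h Fabp2 fell by 1.06 ± 0.22 (SE, adjusted p = 0.00874), a call lost without the low-band arrays, and Apoa4, an apolipoprotein also made by liver, by 1.20 ± 0.14 (SE, adjusted p = 7.03e-05). The intestinal factor Cdx2 was not called at either time. The summed level ran from 11.49 to 11.94 in ANIT and from 11.65 to 12.12 in vehicle livers at 24 h, so the groups overlapped.

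None of 10 renal tubule markers was called at 24 h, and 2 had an unadjusted p under 0.05. At 120 h Slc22a8, an anion carrier also found in liver, fell by 1.57 ± 0.25 (SE, adjusted p = 0.000798). Of 10 measured hepatocyte markers 2 rose and 1 fell at 24 h: Hnf4a, Tat (0.74 ± 0.25, adjusted p = 0.0388) and Cyp2e1 (-0.58 ± 0.08, adjusted p = 1.06e-05). The Tat call ended under quantile normalization and with each covariate, among other settings. The hepatocyte count at 24 h was 1 when ANIT 24 h replicate 1, ANIT 24 h replicate 6 or the control replicate 3 of that time was left out, and 5 without vehicle 24 h replicate 1. Their summed level was 15.52 to 15.64 in ANIT against 15.67 to 15.72 in vehicle livers. At 120 h 0 were called, and 2 had an unadjusted p under 0.05.

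Of 7 measured neutrophil markers 3 rose at 24 h and 4 were not called, with a median of 0.03: S100a8 by 1.82 ± 0.38 (SE, adjusted p = 0.00132), S100a9 by 0.87 ± 0.22 (SE, adjusted p = 0.00598) and Il1r2 by 0.84 ± 0.16 (SE, adjusted p = 0.000591). Their summed level was 8.51 to 9.29 in ANIT and 7.45 to 8.56 in vehicle livers, so the groups overlapped. The S100a9 call was lost with the actin covariate. At 120 h 0 of 7 were called, and 1 had an unadjusted p under 0.05. Of 10 measured macrophage markers 2 rose at 24 h, Lgals3 (1.13 ± 0.23, adjusted p = 0.000793) and Cd163 (0.38 ± 0.10, adjusted p = 0.0102), both lost with the actin covariate. At 120 h 2 rose, Gpnmb (1.08 ± 0.19, adjusted p = 0.00273) and Cd163 (0.43 ± 0.10, adjusted p = 0.0239), and the count was 1 when ANIT 120 h replicate 6 or any of the controls 1, 5 and 6 of that time was left out. Of 12 stellate cell markers Timp1, a protease inhibitor, rose by 1.86 ± 0.24 (SE, adjusted p = 3.03e-06) at 24 h, and Lrat (-1.25 ± 0.17, adjusted p = 6.49e-06) and Reln (-0.52 ± 0.11, adjusted p = 0.00183) fell, of which the Reln call was lost with the actin covariate. At 120 h 0 of 12 were called, and 6 had an unadjusted p under 0.05, and 3 were called without ANIT 120 h replicate 1. The part of these cell types in the Slc10a2 values was not tested.

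Over the 24 arrays the genes most like Slc10a2 by Pearson r were Dnajc3 (r = 0.92, rho = 0.88), Gnpnat1 (0.91, 0.87), Derl1 (0.91, 0.82), Orm1 (0.91, 0.87), Spcs3 (0.90, 0.86) and Erp44 (0.90, 0.84). Dnajc3, Derl1 and Erp44 act in protein folding and quality control in the endoplasmic reticulum, Spcs3 is a signal peptidase subunit, Gnpnat1 makes a sugar precursor and Orm1 is an acute phase plasma protein. These r values also hold the difference between groups, which the arrays share. The r of Dnajc3 was 0.89 once the 2 arrays most distant from the Slc10a2 median were left out. Over 13437 genes the median r was 0.03, and 247 genes were over 0.8. Genes picked by this r share the group means of Slc10a2, so their 24 h differences, such as 0.73 ± 0.09 (SE) for Dnajc3 and 0.95 ± 0.10 (SE) for Orm1, are a description only.

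The genes with the lowest r were Cpt1a (-0.88), the carnitine transferase of fatty acid oxidation, Pank1 (-0.87), a pantothenate kinase, and Slco1b2 (-0.85), the uptake carrier named above. The 24 h difference of Cpt1a was -1.06 ± 0.11 (SE), also a description. After each group's mean was removed, the highest r values were those of Taldo1, Itih1, Celf1 and Lgalsl, each 0.81, over 13437 genes with a median of 0.19 and 6 over 0.8. Itih1 had an r of 0.02 over the 24 arrays before the means were removed. Within the 120 h ANIT group, where Slc10a2 varied most, r over 6 arrays was 0.97 for Taldo1, 0.93 for Orm1 and -0.96 for Slco1b2. Those 6 arrays also differ in array SD, as given above.

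**Figure D4:**
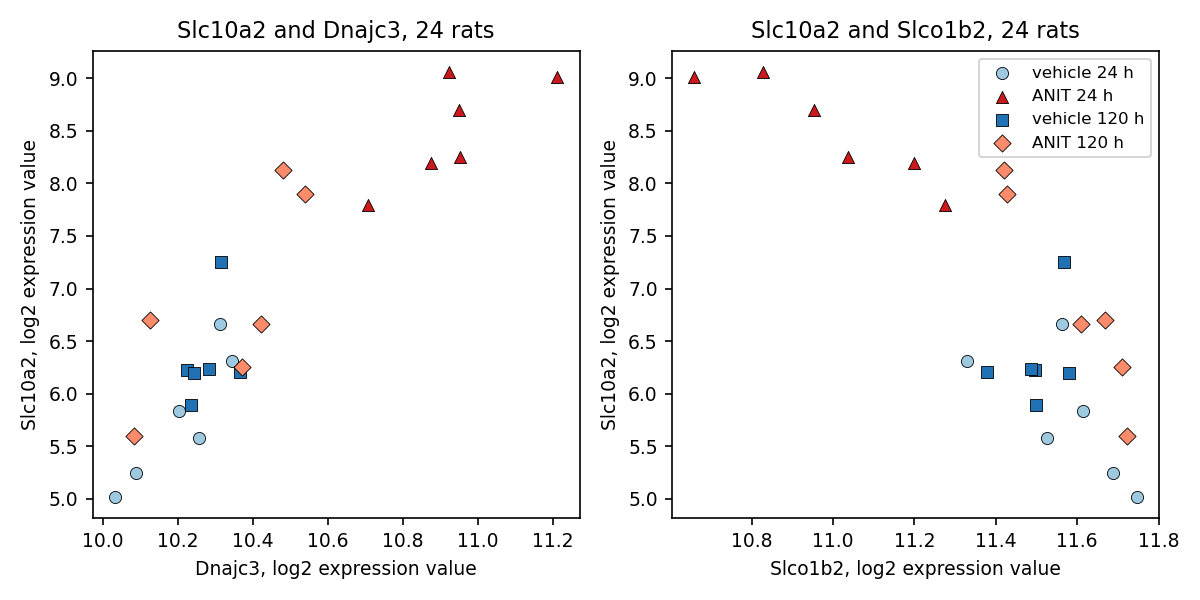
Log2 level of Slc10a2 (vertical axes) against that of Dnajc3 and of Slco1b2 (horizontal axes), with 1 point per rat, marked by group. Over the 24 arrays r is 0.92 for Dnajc3 and -0.85 for Slco1b2.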

How the data were processed

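Liver RNA of 24 rats was amplified, biotin labelled and hybridised to 1 array per rat. The authors deposited log2 values per probe set, normalized by RMA, with Partek named too, per the submitters' processing notes; the sources used here give no settings or versions. The values were used as deposited. Of 31139 probe sets, 19068 name 1 gene, 573 several and 11498 none; the brightest probe set stood for each of 13438 genes.

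All 24 arrays entered 1 limma fit (limma 3.58.1, R 4.3.3) with a mean per group, with Benjamini-Hochberg adjustment over all genes, a call at an adjusted p under 0.05 and no minimum fold. Slc10a2 was not tested. The fit was tested on simulated data. The number of arrays limits the precision; nothing in the labels ties rats to a cage or batch, and p-values measure the spread between rats.

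Named genes are, of each list, the 3 members with the smallest p at 24 h and the 2 at 120 h, a set of bile acid and marker genes, and the genes with the highest and lowest likeness to Slc10a2. The member and the lists were chosen with earlier results of these data known. Alternatives were other scalings, covariates, a block, arrays left out, the probe set rule and a filter on dim genes. Some items are not reported here.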

Additional observations from a re-analysis of the deposited data

Results flagged for a closer look

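In 16 of 244 groups of 6 livers, over the genes other than Slc10a2 whose values are given, 1 liver stood apart from the rest by Dixon's ratio, the gap to the nearest liver over the whole range, past its critical value. Chance gives about 1 in 20, or 12.2 of them. The ratios, by liver, were Abcb11 (highest, 0.79) and Cftr (highest, 0.663) and Prom1 (highest, 0.72) in vehicle 120 h replicate 3, Abcg2 (lowest, 0.691) in ANIT 120 h replicate 6, Abcc3 (highest, 0.652) and Nr1h4 (highest, 0.778) and Cpt1a (highest, 0.635) in ANIT 24 h replicate 2, Slc51a (highest, 0.641) in ANIT 120 h replicate 3, Fabp2 (lowest, 0.691) in ANIT 24 h replicate 4, Apoa4 (highest, 0.659) in vehicle 24 h replicate 1, Gnpnat1 (lowest, 0.744) and Slco1a1 (lowest, 0.629) in vehicle 24 h replicate 5, Orm1 (highest, 0.762) in vehicle 120 h replicate 2, Cpt1a (lowest, 0.844) in vehicle 24 h replicate 4, Cpt1a (lowest, 0.745) in ANIT 120 h replicate 1, Cd163 (highest, 0.733) in ANIT 120 h replicate 2.

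Among the genes whose values are given, the ANIT effects at 24 h and 120 h differed for 36 by the limma contrast of the effects, with adjusted p-values up to 0.0496 for Tat. The 24 h effect was the higher, in log2 units, for Slc10a3 (0.87), Slc10a7 (0.62), Abcb11 (0.53), Abcg2 (1.31), Nr0b2 (2.32), Jun (1.54), Zfp36 (1.05), Fabp2 (2.36), Apoa4 (1.01), Timp1 (1.87), Dnajc3 (0.67), Gnpnat1 (0.77), Derl1 (0.66), Orm1 (0.81), Spcs3 (0.58), Erp44 (0.71), Taldo1 (0.64), Abcb4 (0.80), Tat (1.03). It was the lower for Slc10a1 (-0.58), Slco1b2 (-0.68), Nr1h4 (-1.17), Cyp8b1 (-1.77), Krt19 (-0.88), Cftr (-0.59), Cd24 (-1.09), Prom1 (-1.06), Tspan8 (-1.50), Gpnmb (-1.16), Cpt1a (-0.64), Pank1 (-0.42), Slco1a4 (-1.95), Cyp27a1 (-0.77), Cyp2e1 (-0.56), Lrat (-0.87), Reln (-0.54). Dnajc3, Gnpnat1, Derl1, Orm1, Spcs3, Erp44, Cpt1a, Pank1, Slco1b2 and Taldo1 were picked, or also picked, by their likeness to Slc10a2, so nothing is read from their calls. Of these 36, 25 lost the call under at least 1 other setting, 24 of them with the actin ratio as a covariate and 16 without the 6 low-band arrays. Both of these settings are tied to group, as given above, so nothing is read from those losses. Leaving out 1 array ended the call of 4: Abcb11 (vehicle 24 h replicate 3, ANIT 24 h replicates 1 and 3, vehicle 120 h replicate 3, ANIT 120 h replicate 4), Pank1 (in 7 fits), Reln (ANIT 24 h replicate 1) and Tat (in 17 fits).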

How the results depend on the processing

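All 4 Slc10a2 differences kept their direction under every alternative run. Leaving out each array gave 2.58 to 2.91 at 24 h, 0.29 to 0.79 at 120 h, 1.93 to 2.44 for the difference between times and 0.37 to 0.74 for the vehicle groups. Over the other settings the 120 h difference ran from 0.51 to 1.23 (without the 6 low-band arrays) and the vehicle difference from 0.18 (array SD as a covariate) to 0.61. With the actin ratio as a covariate the 24 h difference was 2.01 and the difference between times 1.28, and without the 6 low-band arrays the latter was 1.37. Called members of lists changed as follows, where only the larger changes are given. With the actin ratio at 24 h: SLC10 family 1, carriers 5, factors acting on Slc10a2 1, cholangiocyte 1, hepatocyte 1, macrophage 0. Without the 6 low-band arrays: SLC10 1, cholangiocyte 1, hepatocyte 1 and macrophage 1 at 24 h, and ileal 1, neutrophil 1, macrophage 1 and stellate 1 at 120 h. With dim genes left out: SLC10 1, cholangiocyte 1, hepatocyte 5 and neutrophil 1 at 24 h, and carriers 2, cholangiocyte 3, ileal 1 and stellate 2 at 120 h; fewer genes are tested there. With the control level at 120 h: carriers 2, sensing 1, hepatocyte 1, stellate 3. With quantile normalization: renal 1 at 24 h, and sensing 1 and stellate 3 at 120 h. With arrays shifted to a common median: cholangiocyte 0 at 24 h, macrophage 1 at 120 h. With array SD as a covariate at 120 h: sensing 1, stellate 4. With the band as a block: cholangiocyte 4 at 24 h, and sensing 1 and stellate 2 at 120 h. With only the 2 groups compared: hepatocyte 1 at 24 h, and sensing 2, macrophage 1 and stellate 1 at 120 h. With the mean of a gene's probe sets, stellate 1 at 120 h. That setting also turned the 24 h difference of Hnf4a to -0.12, whose probe sets thus disagree. Leaving out 1 array gave ranges of 1 to 3 for cholangiocyte, 0 to 2 for renal and 1 to 5 for hepatocyte markers at 24 h, and of 1 to 2 for carriers, 0 to 1 for sensing, 0 to 1 for hepatocyte, 1 to 2 for macrophage and 0 to 3 for stellate markers at 120 h. The higher counts came without ANIT 120 h replicate 3 for carriers, vehicle 24 h replicate 1 for sensing, ANIT 24 h replicate 4 for renal markers, and vehicle 120 h replicate 2, ANIT 120 h replicate 1 or ANIT 120 h replicate 3 for hepatocyte markers at 120 h. Smaller moves without 1 array were 7 to 9 for carriers, 3 to 5 for factors acting on Slc10a2 and 3 to 4 for stellate markers at 24 h. At 120 h the cholangiocyte count was 4 to 6. The cause was not tested in any of these. For single genes, 92 fits that left out 1 array lost a call and 21 gained one, while 4279 stayed on the same side of the threshold, and of the other settings 130 lost a call, 33 gained one and 1560 stayed. The common median moved the all-gene median of the difference between times to 0.13. No paired analysis was possible because each rat gave 1 array in 1 group and the labels tie no rat to another. The labels give each rat an identifier but no replicate number, and the numbers used follow sample order. Arrays give no depth, so signal over background limits dim probe sets.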
